A study of Macaca fascicularis with 12 samples.

Results

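The genes described here are 10 that astrocytes switch on or raise when brain tissue is injured or inflamed: GFAP, VIM, LCN2, SERPINA3, CHI3L1, S100A10, CP, STEAP4, EMP1 and HSPB1. All probe sets whose only gene symbol in the array annotation is one of these names were taken, which gave 24 of the 52766 non-control probe sets, for 9 of the 10 genes; in all, probe sets of a single symbol name 14132 genes. HSPB1, a small heat shock protein, is not analysed here, since no probe set was annotated with that symbol alone. Of the 24 probe sets, 21 were bright enough to be tested (a mean signal at or above the 40th percentile), and these cover 8 genes; the single STEAP4 probe set, 1 of 4 for VIM and 1 of 4 for LCN2 were not.

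The samples were brain tissue of 3 adult male cynomolgus macaques. The left hemisphere of each received 4 intrastriatal injections of the baculovirus vector BV-HSVtk, of 10 µL and 1e8 viral particles each, purified by membrane chromatography and high-speed centrifugation (MC+HS). The right hemisphere received a mock preparation at corresponding coordinates, made from virus-free Sf9 insect cell medium purified likewise, and about 100 mg of tissue per sample was taken 2 days later. There were 12 arrays, 6 BV and 6 mock, with 2 tissue pieces per hemisphere: replicates 1 and 2 are animal 1, replicates 3 and 4 are animal 2, replicates 5 and 6 are animal 3, and odd numbers are piece 1. No uninjected tissue was analysed here, so every mock level is that of an injected hemisphere, and virus and hemisphere cannot be told apart.

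Astrocytes respond to damage, cytokines and interferons by enlarging their cytoskeleton of intermediate filaments and by secreting acute-phase and matrix-modifying proteins. GFAP and vimentin (VIM) are those filaments. LCN2 binds iron-carrying siderophores, SERPINA3 inhibits proteases, CHI3L1 is the chitinase-like protein YKL-40, and CP, ceruloplasmin, oxidises iron. S100A10 is the annexin A2 partner, EMP1 an epithelial membrane protein and STEAP4 a metalloreductase. Several of these genes are not particular to astrocytes: neutrophils and macrophages make LCN2, and vessel cells and microglia contain vimentin. In pieces of tissue, fewer cells of a type and less RNA per cell cannot be told apart.

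Signals were quantile-normalized and are given as log2(signal + 3.49), and a fold is BV minus mock on that scale, with its SE from limma over n = 3 animals (pieces averaged, animal as block, Benjamini-Hochberg adjusted p over 31660 probe sets). In limma each SE is drawn toward a trend over all probe sets, so it can understate the spread of the 3 animals. For the brightest SERPINA3 probe set, with an SE of 0.28, the differences of animals 1, 2 and 3 were 1.52, -0.02 and 1.11. No probe set of these genes passed at an adjusted p of 0.05: 0 of 21, against 0.0284% of all tested probe sets (9, all higher in BV). At an unadjusted p under 0.05, 11 of the 21 were higher in BV tissue and 0 lower, against 5.15% higher and 3.65% lower of all tested. The 11 were probe sets of VIM, LCN2, SERPINA3, CHI3L1, S100A10 and CP, so several came from the same gene and are not independent. Of the 21 folds 17 were positive, against 46.9% of all tested. The median fold over the 8 genes, each by its brightest probe set, was 0.73, beside -0.02 over all tested probe sets, and the adjusted p of the 21 ran from 0.236 to 0.99. The replicates fell into a pattern that the mean folds do not show. For most of these genes the difference lay in pairs 1 and 6, where the mock array was low, while one LCN2 probe set was higher in BV tissue in every pair.

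**Figure D1:**
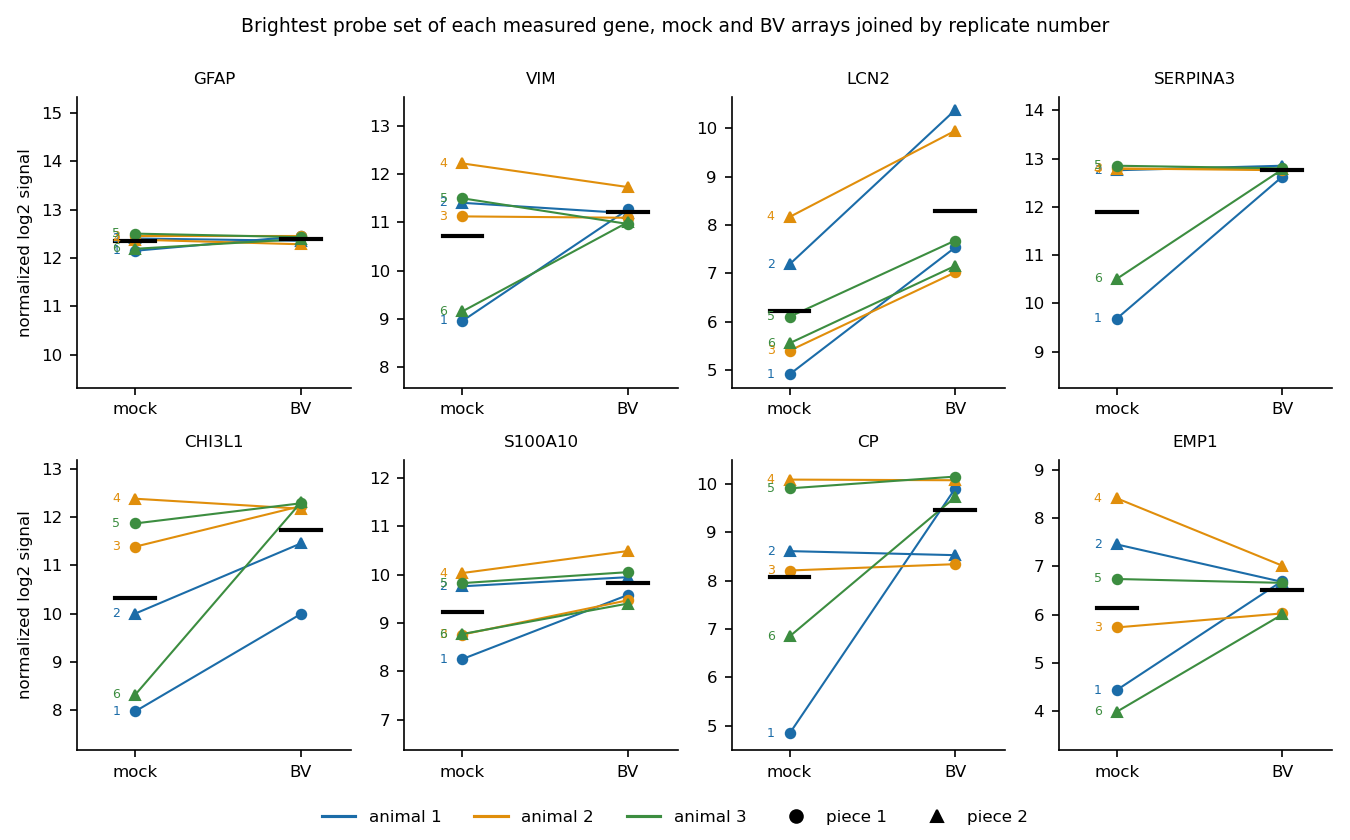
Normalized log2 signal of the brightest probe set of each of the 8 tested genes, mock and BV arrays joined by replicate number (small digits), coloured by animal, with circles for piece 1 and triangles for piece 2. Black bars are group means, and every panel spans the same number of log2 units. LCN2 is higher in BV tissue in 6 of 6 pairs, while the VIM, SERPINA3, CP and EMP1 lines slope up steeply in pairs 1 and 6.

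LCN2, lipocalin 2, had the largest fold of the 21 probe sets. Its brightest probe set, MmugDNA.19209.1.S1_s_at, read 7.54, 10.38, 7.02, 9.95, 7.68 and 7.16 in BV replicates 1 to 6. In mock replicates 1 to 6 it read 4.91, 7.19, 5.40, 8.17, 6.10 and 5.56. Each BV array lay above the mock array of its number, but the groups overlapped, since mock replicates 2 and 4 exceeded the lowest BV arrays. In both groups the highest values were those of replicates 2 and 4, the second pieces of animals 1 and 2. The pair differences were 2.63, 3.19, 1.62, 1.78, 1.58 and 1.60, so that the smallest was still above 1.5 log2 units. The fold was 2.07 ± 0.28, a 4.19-fold BV to mock ratio, with an adjusted p of 0.236 (limma, higher in 3 of 3 animals). With the replicate number as the block on 12 single arrays, which treats both pieces of an animal as separate samples, it passed (adjusted p = 0.0146), as 1 of 21 probe sets against 0.174% of all tested. Without the arrays of pairs 1 and 6 the fold was 2.16 (adjusted p = 0.162). Without mock replicates 1 and 6 alone it was 1.60 (adjusted p = 0.0345), and it was positive under all 29 alternatives run.

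The other LCN2 probe sets did not move with it. MmugDNA.4112.1.S1_x_at ranged from 5.19 through a median of 6.29 to 6.83 in BV tissue and from 5.49 through 6.41 to 7.21 in mock tissue, with a fold of -0.25 ± 0.15 (adjusted p = 0.583). MmugDNA.4112.1.S1_s_at ranged from 4.91 to 6.44 in BV and from 5.50 to 7.17 in mock tissue, with a fold of -0.25 ± 0.17 (adjusted p = 0.595). MmugDNA.4112.1.S1_at was below the filter, with group means of 4.61 and 4.84. These 3 probe sets carry one design number, and they read lower in BV tissue in 5, 4 and 5 of 6 pairs. The suffix _s_at is given to probe sets shared by transcripts and _x_at to those with probes that may bind unrelated sequences. Which of the 4 tracks the LCN2 transcript was not tested, since probe sequences were not used here.

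**Figure D2:**
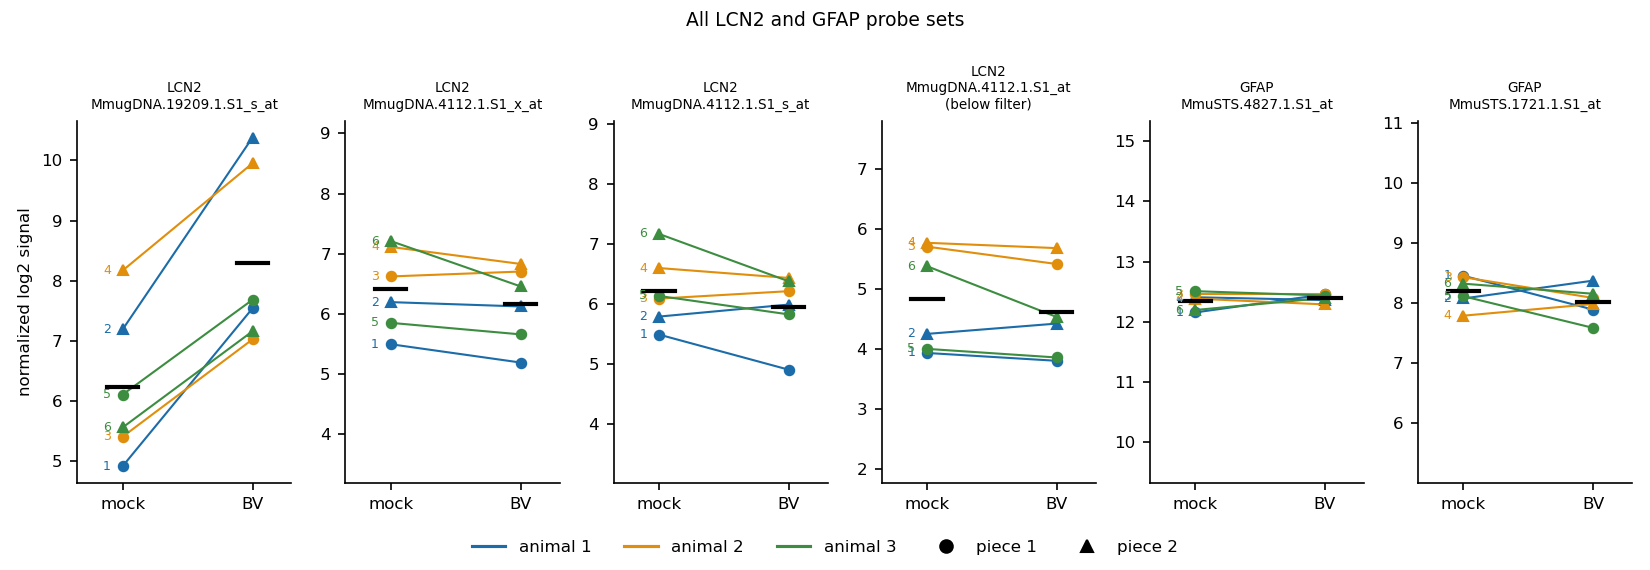
Normalized log2 signal of each of the 4 LCN2 and 2 GFAP probe sets in mock and BV arrays, joined by replicate number, with black bars for group means and the same log2 span in each panel. Only MmugDNA.19209.1.S1_s_at is higher in BV tissue in 6 of 6 pairs; the brighter GFAP probe set stays between 12.15 and 12.51.

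GFAP, the filament protein by which reactive astrocytes are usually recognised, had nearly equal signals. The brighter probe set, MmuSTS.4827.1.S1_at, read 12.29 to 12.45 in BV tissue (median 12.41) and 12.15 to 12.51 in mock tissue (median 12.39). The groups overlapped almost fully, and the lowest arrays were mock replicates 1 and 6 at 12.15 and 12.19. Mock replicate 6 was low only after normalization. On the deposited scale it had 3537, the highest of the piece 2 arrays, where BV replicate 6 had 3338. The fold of this probe set was 0.05 ± 0.07 (adjusted p = 0.796), with 2 of 6 pairs higher. On the array it is among the brightest, ranking between 20 and 88 of 52766 with 54.1% to 72% of each array's highest deposited signal. Only 1 probe set stood at each array's highest signal, but a probe set sums up several probes, so this cannot show whether they reached a ceiling. Differences this near the top of the scale can be compressed, so the small fold does not show that GFAP RNA was alike. The dimmer probe set, MmuSTS.1721.1.S1_at, lay far from the top, at 1.93% to 5.99% of the highest signal. It read 7.58 to 8.37 in BV tissue (median 8.03) and 7.79 to 8.45 in mock tissue (median 8.21). Its fold was -0.19 ± 0.15 (adjusted p = 0.63), again with overlapping groups and higher BV values in 2 of 6 pairs.

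Vimentin, which partners GFAP in the filaments of reactive astrocytes, was low in 2 mock arrays. The brightest probe set read 8.96 and 9.15 in mock replicates 1 and 6. The other 4 mock arrays read 11.40, 11.12, 12.22 and 11.50, and the 6 BV arrays 10.96 to 11.73, so that apart from these 2 arrays the mock values were as high as the BV values. Its pair differences were 2.31 and 1.85 in pairs 1 and 6 and -0.53 to -0.03 in pairs 2 to 5. The next probe set, MmugDNA.41518.1.S1_s_at, gave 3.34 and 3.11 against -0.47 to -0.08, and MmuSTS.4634.1.S1_x_at gave 2.24 and 0.94 against -0.68 to 0.28. All 3 thus showed the same split. Their folds were 0.48 ± 0.24, 0.87 ± 0.35 and 0.29 ± 0.20, with adjusted p of 0.569, 0.564 and 0.595, and they became -0.34, -0.32 and -0.43 without the arrays of pairs 1 and 6.

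SERPINA3, the secreted protease inhibitor alpha-1-antichymotrypsin, was among the brightest transcripts on most arrays. Its brightest probe set, MmuSTS.2150.1.S1_at, read 12.63 to 12.85 on all 6 BV arrays and 12.76 to 12.85 on 4 mock arrays, but 9.69 on mock replicate 1 and 10.51 on mock replicate 6. On the deposited scale, mock replicate 1 had a signal of 884 where BV replicate 1 had 8177, and mock replicate 6 had 1139 where BV replicate 6 had 4254. The pair differences were 2.94 and 2.27 in pairs 1 and 6 and -0.05 to 0.09 in the other 4. The fold over animals was 0.87 ± 0.28 (adjusted p = 0.564), and 0.01 without the arrays of those pairs. The second brightest had a fold of 1.09 ± 0.35 (adjusted p = 0.564), and 0.06 without them. These probe sets reached 93.1% and 85.7% of an array's highest signal, so that the other 10 arrays were read near the top of the scale, where differences may be compressed.

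The 3 dimmer SERPINA3 probe sets lay far below the top of the scale. The fourth in mean signal, at up to 4.73% of the highest, had pair differences of 0.84, 0.57, 0.95, -0.45, 1.05 and 1.45. BV values were higher in 5 of 6 pairs, with a fold of 0.74 ± 0.22 (adjusted p = 0.564) that was 0.62 without pairs 1 and 6. MmugDNA.42838.1.S1_at had a fold of 0.21 ± 0.13 (adjusted p = 0.588), with pair 6 the lowest at -0.43, and 0.44 without pairs 1 and 6. The dimmest had -0.01 ± 0.15 (adjusted p = 0.99). The 5 probe sets named for this gene therefore gave folds from -0.01 to 1.09.

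**Figure D3:**
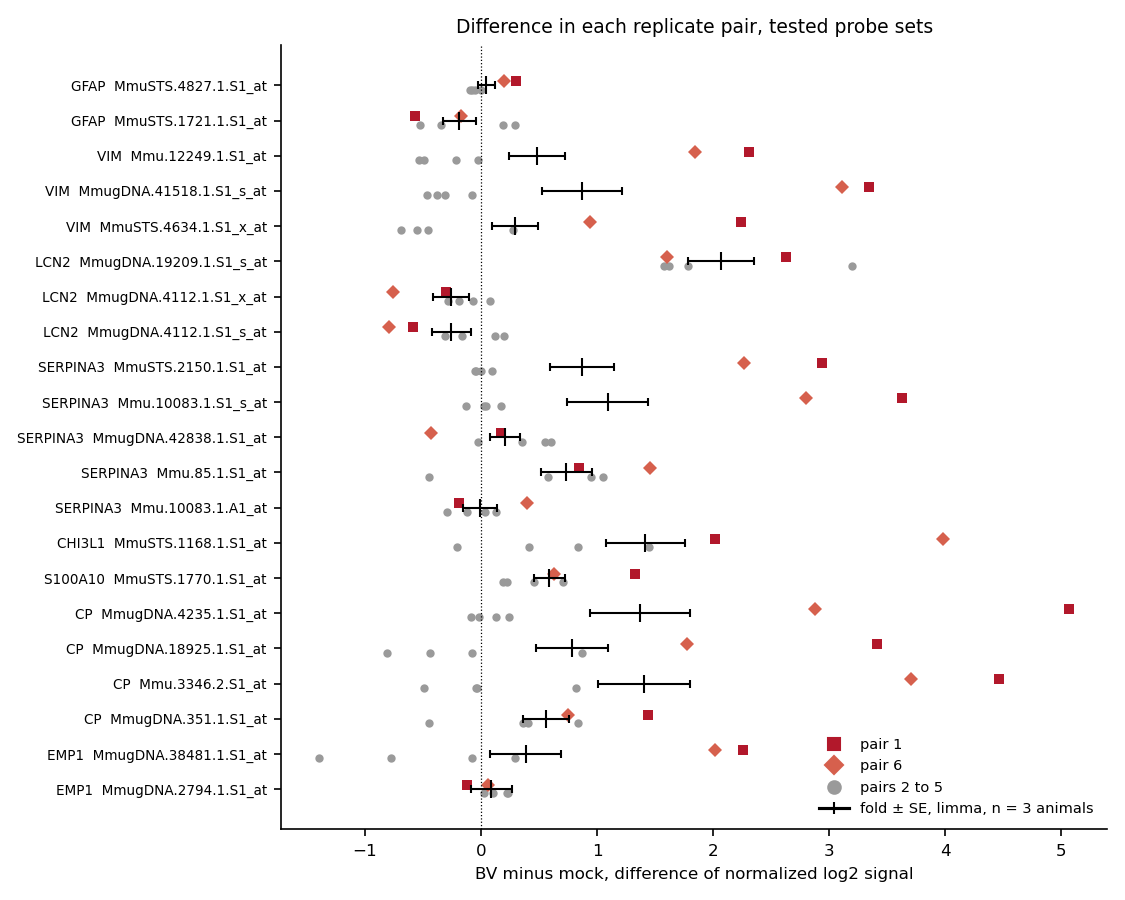
BV minus mock difference of normalized log2 signal in each replicate pair for the 21 tested probe sets, with squares for pair 1, diamonds for pair 6, grey circles for pairs 2 to 5, and the limma fold ± SE over 3 animals in black. For VIM, the bright SERPINA3 and 3 of 4 CP probe sets, pairs 1 and 6 lie to the right of all others; the LCN2 probe set MmugDNA.19209.1.S1_s_at has all 6 pairs above 1.5.

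CHI3L1, a secreted glycoprotein of reactive astrocytes and macrophages, had a fold of 1.42 ± 0.34, a 2.67-fold ratio (adjusted p = 0.486). BV replicates 1 to 6 read 9.99, 11.45, 12.22, 12.17, 12.28 and 12.30, and mock replicates 1 to 6 read 7.98, 10.00, 11.38, 12.38, 11.86 and 8.32. Mock replicates 1 and 6 were again lowest, and the groups overlapped, with mock replicates 2 to 5 all above BV replicate 1. Pair differences were 2.01, 1.45, 0.84, -0.21, 0.42 and 3.98, higher in BV tissue in 5 of 6. Without the arrays of pairs 1 and 6 the fold was 0.73 (adjusted p = 0.446). The probe set reached up to 67.5% of an array's highest signal.

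S100A10, which binds annexin A2 at the cell membrane, was the other gene with a higher BV value in every pair. Its probe set read 9.58, 9.95, 9.47, 10.49, 10.05 and 9.40 in BV replicates 1 to 6 and 8.26, 9.76, 8.76, 10.04, 9.83 and 8.77 in mock replicates 1 to 6. The 6 pair differences were 1.33, 0.19, 0.71, 0.46, 0.23 and 0.63, while the groups overlapped. The fold was 0.59 ± 0.13, a 1.51-fold ratio (adjusted p = 0.449), and 0.33 without the arrays of pairs 1 and 6 (adjusted p = 0.477). In all, 2 of the 21 probe sets were higher in every pair and 0 lower in every pair, where 3.37% and 4.38% of all tested probe sets were.

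Ceruloplasmin (CP), the ferroxidase that astrocytes carry on their surface, had the largest single pair difference. The brightest probe set, MmugDNA.4235.1.S1_at, read 4.84 in mock replicate 1 and 9.91 in BV replicate 1, a difference of 5.07, and 6.85 against 9.73 in pair 6. In the other 4 pairs both arrays read between 8.21 and 10.15, and the differences were -0.08 to 0.24. The fold was 1.37 ± 0.43 (adjusted p = 0.564), against 0.07 without pairs 1 and 6. The third had 4.46 and 3.70 in pairs 1 and 6 and -0.49 to 0.82 in the others, with a fold of 1.403 ± 0.39 (adjusted p = 0.559). MmugDNA.18925.1.S1_at and MmugDNA.351.1.S1_at had folds of 0.79 ± 0.31 and 0.56 ± 0.20 (adjusted p = 0.564 for both). All 4 CP probe sets were higher on average in BV tissue. Without the arrays of pairs 1 and 6 these folds were 0.03 for the third, -0.16 for MmugDNA.18925.1.S1_at and 0.32 for MmugDNA.351.1.S1_at.

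EMP1, a membrane protein of the PMP22 family, repeated the pattern with more scatter. Its brighter probe set, MmugDNA.38481.1.S1_at, read 4.44 and 3.99 in mock replicates 1 and 6, 5.74 to 8.41 in the other mock arrays and 6.01 to 7.02 in BV tissue. Pair differences were 2.26 and 2.01 in pairs 1 and 6 and -1.39 to 0.29 in the others, and the fold was 0.39 ± 0.31 (adjusted p = 0.634), or -0.47 without those pairs. The dimmer probe set, MmugDNA.2794.1.S1_at, read 4.73 to 5.40 on all 12 arrays with a fold of 0.09 ± 0.18 (adjusted p = 0.842). STEAP4 could not be assessed: its probe set read 2.23 to 4.52 in BV and 2.76 to 3.85 in mock tissue, below the filter. The fourth VIM probe set was below it too, at 2.19 to 4.67.

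By normalized signal, mock replicates 1 and 6 were the lowest of the 12 arrays for 11 of the 21 tested probe sets. The 11 were 3 of VIM, 2 of SERPINA3, CHI3L1, 3 of CP, 1 of EMP1 and the bright GFAP set. For that GFAP set, mock replicate 6 was not low on the deposited scale. Over all tested probe sets the share was 5.52%. These arrays were picked out after their values had been seen, so the counts describe them and test nothing. By pair, the median difference over the 8 genes was 2.28, 0.02, 0.21, -0.05, 0.09 and 1.93 in pairs 1 to 6, where that over all tested probe sets stayed between -0.08 and 0.01. By animal it was 1.28, 0.02 and 1.04 in animals 1, 2 and 3, since pair 1 belongs to animal 1 and pair 6 to animal 3. Without the arrays of pairs 1 and 6 it was 0.040. There 0 of 21 probe sets passed (0.0474% of all tested), and 5 of the 21 probe sets were higher and 4 lower at an unadjusted p under 0.05, against 5.59% higher and 4.8% lower among all tested. Whether the BV to mock difference varied between animals was tested in limma on single arrays, with 0 of 21 at an adjusted p of 0.05 (0% of all tested) and 0 at an unadjusted p under 0.05 (2.32%). The same test between pieces gave 0 (0%) and 0 (1.8%). The animal test took the 2 pieces of a hemisphere as replicates. A mock array that was low beside its other piece thus added to the residual spread. In the piece test the low arrays fell on different pieces, mock replicate 1 on piece 1 and mock replicate 6 on piece 2. Neither test can therefore show that the animals or the pieces were alike.

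Without animal 2, the animal in which neither pair shows this split, the count turned. Then 11 of the 21 probe sets passed (VIM 2, LCN2 1, SERPINA3 3, CHI3L1 1, CP 3 and EMP1 1), but so did 5.83% of all tested probe sets, in a fit on 2 animals that each hold one of the low mock arrays. In that fit the fold of the brightest SERPINA3 probe set was 1.31 (adjusted p = 8.32e-05) and that of the brightest VIM probe set 0.85 (adjusted p = 0.00866). Without animal 3 the LCN2 probe set MmugDNA.19209.1.S1_s_at passed at 2.31 (adjusted p = 0.0222), as 1 of 21, where 82 of all tested probe sets (0.259%) did.

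**Figure D4:**
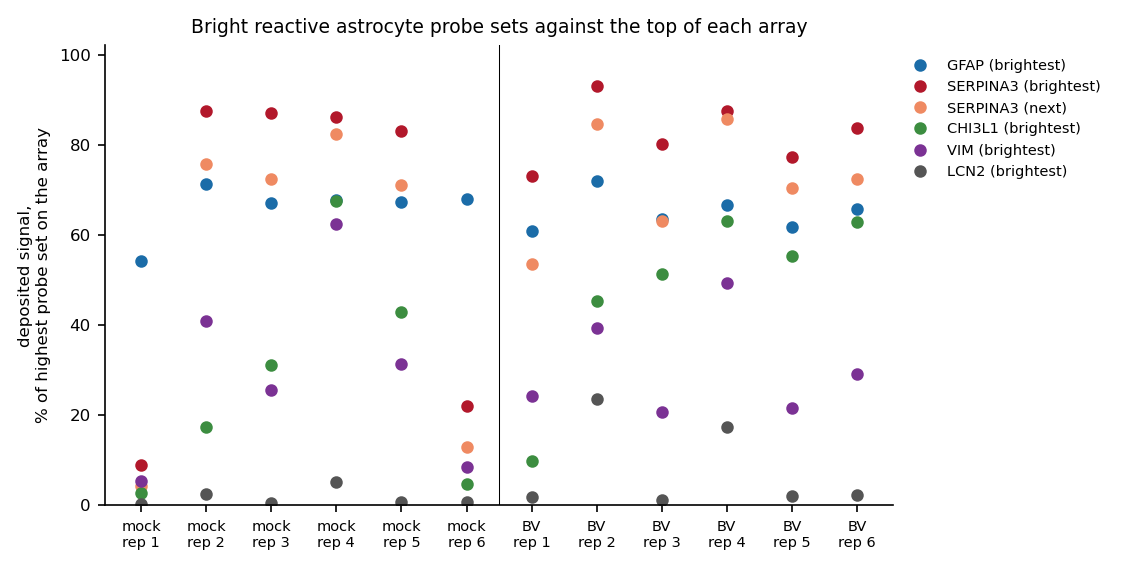
Deposited signal of 6 bright probe sets as a percentage of the highest probe set on each array (linear axis from 0), by mock and BV replicate. GFAP stays between 54.1% and 72%, and the brightest SERPINA3 set lies at 72.9% or above on 10 arrays but at 8.9% in mock replicate 1 and 21.9% in mock replicate 6.

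The arrays differed in other ways as well. Deposited medians were 50.2 to 62.8 on piece 1 and 25.4 to 32.7 on piece 2 arrays, a gap that the normalization removes. Trimmed means, without the top and bottom 2% of values, were 100 on all piece 2 arrays and 142 to 189 on piece 1 arrays. The scaling before deposit thus differed by piece. The 3'/5' actin signal ratio, a sign of RNA integrity, was 2.40 in mock replicate 6 and 1.34 in mock replicate 1, against 1.1 to 1.4 on the others. Its part in the low values was not tested. The tissue makeup of the 2 arrays was not alike: thalamic markers (7 genes) averaged 8.56 in mock replicate 1 and 5.998, the lowest of all, in mock replicate 6. Markers of medium spiny neurons, the main striatal cells, averaged 6.32 and 10.44, the latter the highest of all 12 arrays. Regional makeup also differed between BV and mock tissue: in 6 of 6 pairs the thalamic mean was higher on the BV array, with 6 of 7 folds positive and a median of 0.86. SHOX2 and NTNG1, both thalamic, had folds of 1.73 ± 0.16 and 1.44 ± 0.18 (adjusted p = 0.101 and 0.194). Folds of all 7 medium spiny neuron genes were negative, with a median of -0.97, but this did not hold in every animal. All 7 were higher in BV tissue in animal 2, and the mean of the list was higher on the BV array in 3 of 6 pairs. The mean was 5.76 in BV and 9.91 in mock tissue in pair 2, and 7.41 and 6.14 in pair 3. DRD2 and GPR6, receptors of these neurons, had -1.17 ± 0.55 and -1.16 ± 0.64 (adjusted p = 0.569 and 0.573), and 0 genes of either list passed. The part of this difference in the folds above was not tested. The label of brain tissue holds on all 12 arrays, with oligodendrocyte markers at 11.03 or above.

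Markers of resting astrocytes did not share the low mean of mock replicates 1 and 6, but their genes went both ways. The mean of 13 such genes was 10.02 and 9.83 there, in a mock range of 9.66 to 10.06 and a BV range of 9.32 to 10.01. Mock replicate 6 was the lowest of 12 arrays for ALDOC (10.93), SOX9 (5.41) and APOE (11.22), and the highest for SLC1A2 (11.36). Mock replicate 1 was the lowest for SLC1A3, a glutamate transporter, at 10.27. Of the 13, 5 had a positive and 8 a negative fold, 0 passed, and the median was -0.08. The member of largest fold was SLC1A2, the glutamate transporter GLT-1, at -0.998 ± 0.20 (adjusted p = 0.407), lower in BV tissue in 6 of 6 pairs by 0.36 to 1.70. GJB6, connexin 30, had -0.41 ± 0.14 (adjusted p = 0.564), also lower in 6 of 6 pairs. NDRG2 and S100B, with folds of -0.40 and -0.28, were lower in 6 of 6 pairs too, while APOE, with 0.24, was higher in 6 of 6. For interferon-stimulated genes, of which 4 of 17 tested passed, the mean was 7.37 and 7.44 there, inside a mock range of 7.14 to 7.88, while BV arrays lay at 8.43 to 9.82 without overlap.

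**Figure D5:**
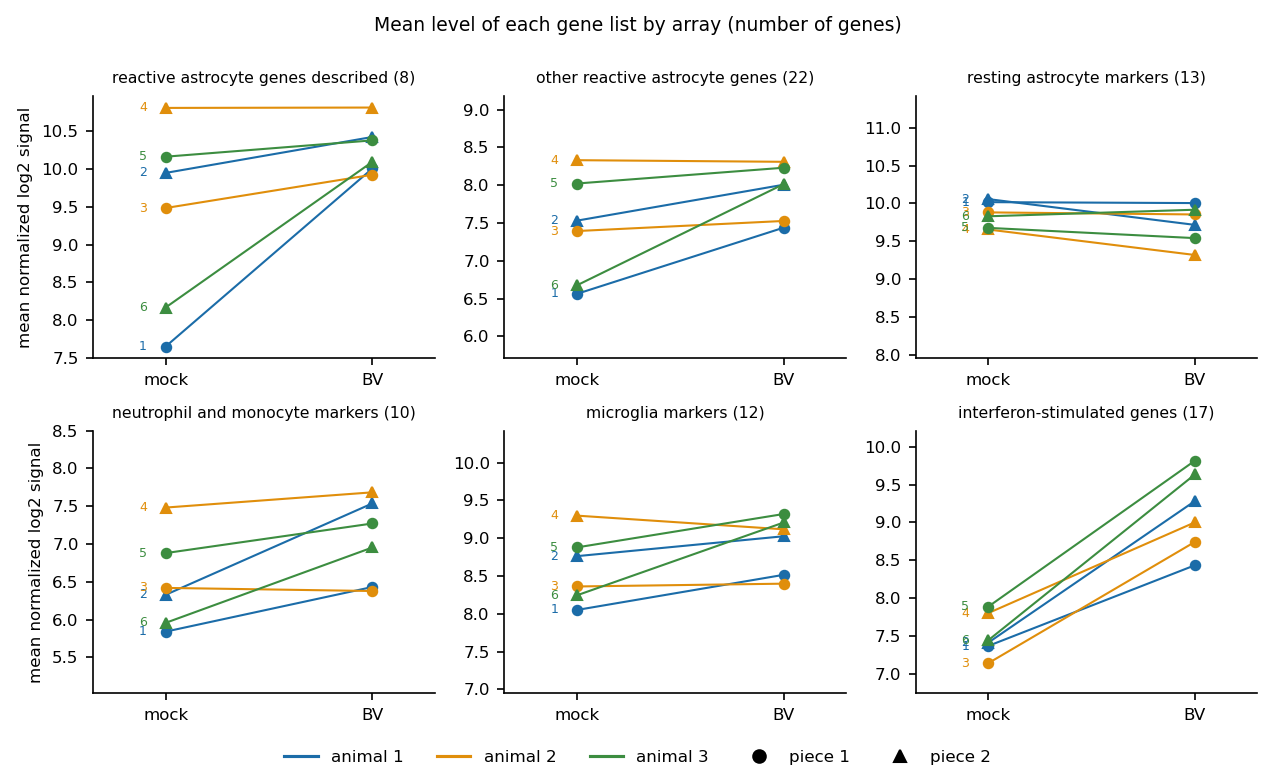
Mean normalized log2 signal per array of 6 gene lists (number of genes in brackets), mock and BV joined by replicate number, coloured by animal, with the same log2 span in each panel. The reactive lists are low in mock replicates 1 and 6 at 7.65 and 8.17 (8 genes) and 6.56 and 6.68 (22 genes), and so are the neutrophil and monocyte markers at 5.84 and 5.96 and the microglia markers at 8.05 and 8.24. Resting astrocyte markers and interferon-stimulated genes do not have these as their 2 lowest arrays.

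The low means of mock replicates 1 and 6 were not particular to astrocyte genes. In 7 of 14 other lists these were the 2 lowest of 12 arrays: further reactive genes, upstream signals, filament and annexin partners, and markers of neutrophils and monocytes, microglia, vessels and fibroblasts. The lists overlap in part, so they are not independent. C1QA, C1QB and C1QC are among both upstream signals and microglia markers, and SYNM among both further reactive genes and filament partners. Of 30 further reactive astrocyte genes 22 were tested, 15 with a positive and 7 with a negative fold, a median of 0.41, and 0 that passed. Their mean was lowest in mock replicates 1 and 6, at 6.56 and 6.68 beside 7.39 to 8.33 on the other 10 arrays, and those arrays were the lowest for 12 of the 22 genes. Without pairs 1 and 6 the median of the pair differences was 0.08. The chemokine CXCL10 and the immunoproteasome subunit PSMB8, both also induced by interferon, had the largest folds, 1.88 ± 0.67 and 1.58 ± 0.37 (adjusted p = 0.564 and 0.47). Among filament and annexin partners, 8 of 12 genes had a positive fold, 0 passed and the median was 0.37. The stress transcription factor HSF1 had 1.15 ± 0.32 (adjusted p = 0.559) and ANXA2, the partner of S100A10, 1.05 ± 0.35 (adjusted p = 0.564). For ANXA2 the difference was 3.62 in pair 1, 2.50 in pair 6 and -0.19 to 0.20 in the others. A second probe set gave a fold of 0.59 for HSF1 and 0.18 for ANXA2.

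Signals that drive astrocyte reaction mostly had positive folds on average, but not in every animal. Of 23 tested ligands, receptors and factors, 18 had a positive and 5 a negative fold, 0 passed, and the median of 0.33 was 0.27 over pairs 2 to 5. In animals 1 and 3, 19 of 23 were positive in each, and in animal 2, 10 of 23. The list's mean was lowest in mock replicates 6 and 1, at 6.76 and 6.79. C1QB, a complement chain that microglia release, had 0.95 ± 0.17 (adjusted p = 0.323), and CEBPD, a transcription factor of the acute phase, 0.92 ± 0.21 (adjusted p = 0.452), both higher in 6 of 6 pairs. STAT3, the main transcription factor downstream of the IL-6 family, had 0.75 (adjusted p = 0.564), IL6 itself 0.33 and SOCS3, its feedback inhibitor, 0.02. TNF was below the filter. Among partners of lipocalin 2 and of iron or copper handling, 5 of 8 genes had a positive fold, 0 passed and the median was 0.14. HAMP, the iron hormone hepcidin, had 0.75 ± 0.31 (adjusted p = 0.564), ACO1, an iron-responsive aconitase, -0.30 ± 0.15 (adjusted p = 0.569), and SLC22A17, a lipocalin 2 receptor, -0.04.

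Markers of other cells that can contain these transcripts were read on the same arrays. Of 10 tested neutrophil and monocyte genes 7 had a positive fold, 0 passed and the median was 0.51. Their mean ran from 6.38 to 7.68 in BV and from 5.84 to 7.48 in mock tissue, higher in BV tissue in 5 of 6 pairs. FCN1 and LYZ, both of monocytes, had folds of 1.51 ± 0.41 and 1.47 ± 0.40 (adjusted p = 0.535 and 0.544). The calprotectin genes S100A9 and S100A8 had 1.34 and 0.82, and CSF3R, the G-CSF receptor, 1.08 (adjusted p = 0.397). VCAN, ELANE, CD177 and MPO lay between -0.19 and 0.20, ITGAM had -0.62, and S100A12, MMP8 and CAMP were below the filter. Microglial markers had a median fold of 0.13 over 12 genes, with CD68 at 1.41 ± 0.47 (adjusted p = 0.564; another probe set -0.17), endothelial and mural markers 0.17 over 10, with KCNJ8 at 0.47 ± 0.16, and fibroblast markers 0.18 over 7, with FN1 at 0.61 ± 0.26. Ependymal and choroid markers had 0.17 over 7, led by FOLR1 at 0.83 ± 0.30, a gene with 4.14 in pair 1, and oligodendrocyte markers -0.02 over 3. Each of these lists held folds of both signs. Positive and negative folds numbered 9 and 3 (microglial), 7 and 3 (endothelial and mural), 5 and 2 (fibroblast), 5 and 2 (ependymal) and 1 and 2 (oligodendrocyte). The 3 negative microglial folds were those of CX3CR1 at -0.33, P2RY12 at -0.10 and TREM2 at -0.006. Mock replicates 1 and 6 were the 2 lowest arrays for 4 of these lists, with means of 5.84 and 5.96 (neutrophil and monocyte), 8.05 and 8.24 (microglia), 7.15 and 7.27 (endothelial and mural) and 6.81 and 6.38 (fibroblast). These lists held 0 genes that passed, and their part in the folds above was not tested.

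The genes whose signal ran closest to that of LCN2 over the 12 arrays were looked up as a description, since arrays share animals, pieces and normalization. The 5 nearest of 18108 named probe sets compared were MARCO, a scavenger receptor of macrophages (Pearson r = 0.94), TPCN2, a lysosomal channel (0.94), PECAM1, an adhesion molecule of vessels and leukocytes (0.92), UPP1, uridine phosphorylase (0.91), and FCN1 (0.91). Without BV replicates 2 and 4, the arrays farthest from the median, r was 0.78 for FCN1 and 0.83 to 0.90 for the others. The Spearman rank correlation over 12 arrays was 0.72 for FCN1 and 0.965 to 0.972 for the others. For the brighter GFAP probe set the nearest were TMEM102, KANK2, SERPINA3, C1RL and RGMA at r of 0.83 to 0.88. Without mock replicates 1 and 6 these r were 0.69, 0.58, -0.07, 0.50 and 0.75 in that order, so that of SERPINA3 rests on those arrays. On the other arrays the GFAP and SERPINA3 probe sets spanned only 0.22 and 0.23 log2 units near the top of the scale. The r of SERPINA3 there can therefore show little.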

How the data were processed

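The authors deposited linear probe set intensity values, 1 column per array. Software named in the submitters' processing notes was GCOS 1.4.0.036; how probes were summarised and scaled is not given in the sources used here. Quantile normalization over 12 arrays, a pseudocount of 3.49 (10th percentile of all intensities), removal of 99 control probe sets and a filter at the 40th percentile of mean log2 signal (4.95) preceded the test. Pieces were averaged per hemisphere, and limma 3.58.1 in R 4.3.3 was fitted with animal as block, treatment as term, an eBayes trend and 2 residual degrees of freedom, two-sided at 0.05. The fit was also run on simulated data with independent noise on each array. Those data held no animal effect and no low arrays, so the run does not bear on either. Pairing follows from both treatments being given to the same animal; deviations from group means correlated at 0.622, 0.156 and 0.361 within animals 1, 2 and 3 and at 0.284 to 0.623 within the 6 replicate numbers.

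Symbols came from a rhesus macaque array annotation and can be old; 24969 probe sets had 1 symbol, 361 several and 27535 none. Cynomolgus RNA may bind rhesus probes less well. Genes to be named were every probe set of the 10 genes and the 5 nearest patterns. Each list was to add its passing genes or the 2 of largest fold in either direction. This was not kept throughout. By this rule only 1 gene was named for the microglial, endothelial and mural, fibroblast, and ependymal lists. No oligodendrocyte gene was named, nor those that passed among the interferon-stimulated genes. IL6, STAT3, SOCS3, SLC22A17, SLC1A3, ALDOC, SOX9, APOE, NDRG2 and S100B were named after their values were seen. So were further neutrophil, monocyte and microglial genes and genes below the filter. Interaction tests and fits without pairs 1 and 6 were also added after the data were seen. The genes and lists were chosen with earlier results of these data known. Precision is limited by the number of arrays and animals, and alternatives covered pseudocount, normalization, filter, blocks, pieces, the trend and single arrays or animals left out.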

Additional observations from a re-analysis of the deposited data

Results flagged for a closer look

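In each group of 6 arrays, the highest or lowest value was compared with its nearest neighbour over the group's range, for the 21 tested probe sets (42 groups, of which chance flags about 1 in 20). In 2 of them an array stood apart. The VIM probe set MmugDNA.41518.1.S1_s_at read 11.88 in BV replicate 4, where the next highest BV array read 11.17. CHI3L1 read 9.99 in BV replicate 1, where the next lowest BV array read 11.45. The low values of mock replicates 1 and 6 were not picked up by this measure, which looks for a single array.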

How the results depend on the processing

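The median fold over the 8 genes stayed positive under all alternatives run. It was 0.35 to 1.13 with an array or animal left out (0.35 without mock replicate 1), 0.040 without the arrays of pairs 1 and 6 (0.035 with the replicate block), and 0.06 without mock replicates 1 and 6 alone. The count of passing probe sets of these genes was 0 except for 1 with the replicate block on 12 single arrays, 1 without mock replicates 1 and 6 together, and 0 to 11 over fits without an array or animal (11 without animal 2, 1 without animal 3). Each single call was the LCN2 probe set MmugDNA.19209.1.S1_s_at, whose fold was 1.58 to 2.56 over all 29 alternatives, with adjusted p from 0.0004 to 0.715 and 4 calls. The count over all tested probe sets, 9, was 1 without normalization or without the trend, 5 without the filter, 55 with the replicate block, 4 without a block, 38 with a piece term, 14 in piece 1 arrays, 0 in piece 2 arrays (1747 at an unadjusted p under 0.05), 15, 25 and 39 in the 3 fits without pairs or mock replicates 1 and 6, and 0 to 1845 without an array or animal (0 without mock replicate 5, with 1703 at an unadjusted p under 0.05; 1845 without animal 2). The count of these genes' probe sets higher at an unadjusted p under 0.05, 11 in the main fit, moved too. With the replicate block it was 5 (7.32% of all tested), with a piece term 3 (5.39%) and in piece 2 arrays 1 (3.43%). It was 5 without mock replicate 3 (3.01%) or 6 (5.53%), and 14 without mock replicate 4 (8.88%) or animal 2 (11.1%). The causes were not tested. A hemisphere that lost an array was represented by its other piece.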
